A study of Mus musculus with 4 samples.

Results

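The genes described here are 10 imprinted genes that act on growth: Dlk1, Igf2, H19, Meg3, Peg3, Mest, Cdkn1c, Grb10, Plagl1 and Ndn. Their probes were taken by symbol from the chip's annotation of probes to genes, with no use of measured values. The list of genes itself was chosen with earlier results of these data known. Of the 10 genes, 8 had a probe, and these 8 genes were read by 12 of the 25697 probes on the chip. H19 and Meg3, the 2 long non-coding RNAs among them, had no probe under their symbol or gene identifier and were not analysed here. The series has 4 mouse samples of total RNA, each measured on 1 Illumina BeadChip array. Their titles are Fibroblast, Primary neuron, APNL and APNL+AuEMF. The series is about converting cells directly into dopamine neurons with an electromagnetic field. Neither APNL nor AuEMF is explained by its label. General knowledge of this kind of work is the only basis for reading APNL as transcription factors delivered to the cells, and AuEMF as gold nanoparticles under an electromagnetic field. Strain, genotype, age, time in culture, the source of the fibroblasts and the brain region of the neurons are not stated in the labels, and no sample is labelled as a control for gene delivery, gold or field alone.

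An imprinted gene is transcribed mainly from the copy inherited from 1 parent, because the other copy carries DNA methylation or other marks set in the germ line. Imprinted genes lie in clusters, and many of them set the growth of the fetus and placenta: as a broad rule, paternally expressed genes such as Igf2 promote growth, and maternally expressed genes such as Cdkn1c and Grb10 restrain it. Several are abundant in embryonic mesenchyme and muscle and are turned down after birth, while others, such as Ndn, are known for high expression in neurons. In mouse midbrain Dlk1 and Cdkn1c have both been linked to Nurr1, a transcription factor of dopamine neurons. The array reads the sum of both parental copies, so nothing here says which copy was active.

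Each group had a single array, so the values come without replicates and nothing was tested. Levels are normalized intensities on the log2 scale, computed from the deposited intensity, and a difference of 1 on this scale is 2-fold. A probe was detected when its detection p-value, which compares it with the negative controls of its array, was under 0.01. Comparisons of a pair of arrays took in the genes that 1 or both of them detected, and a gene is called higher or lower from 2-fold upward. All 6 comparisons draw on the same 4 arrays, so comparisons that share an array are not independent of each other. In bulk RNA, fewer cells of a type and less RNA per cell cannot be told apart.

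The arrays carried the broad signature of their titles. Between 41.4% and 47.8% of probes were detected, and the median raw intensity lay between 169 and 207 units, both lowest for Fibroblast and highest for Primary neuron. All 17 fibroblast markers with a probe were detected on the Fibroblast, APNL and APNL+AuEMF arrays and 16 on the Primary neuron array. Of 18 neuron markers 9, 14, 16 and 16 were detected in the order Fibroblast, APNL, APNL+AuEMF and Primary neuron. Of 11 dopamine neuron markers 4 were detected on each array. Nr4a2, the gene of Nurr1, read 7.19, 7.26, 7.19 and 7.71 in that order. En1 read 9.88, 9.80, 9.45 and 8.55, and Ddc 9.51, 9.27, 8.44 and 6.81. Aldh1a1 was detected on every array but Primary neuron. Of 5 dopamine neuron markers compared between Primary neuron and Fibroblast, 0 were higher, 2 lower and 3 neither. Over all genes 14.9% were lower and 11.0% higher. Th, Slc6a3, Slc18a2, Pitx3 and Foxa2, which mark these neurons, were detected on no array, and Lmx1a only on the Primary neuron array. The Fibroblast array also carried 15 of 20 skeletal muscle markers, such as Myl1 at 13.54, and the muscle regulator Myog at 7.80, while Myod1, Myf5, Myf6, Pax7 and Ckm were detected on no array.

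Of the 8 imprinted genes with a probe, 7 were detected on each of the 4 arrays. Over all genes, 47.3% were detected for Fibroblast, 49.1% for APNL, 51.7% with AuEMF and 52.6% for Primary neuron. The exception was Plagl1, a zinc-finger transcription factor that regulates a network of imprinted genes in mouse. Its 3 probes had raw intensities between 115 and 148 units and detection p-values between 0.178 and 0.789, so Plagl1 was not above background on any array.

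**Figure D1:**
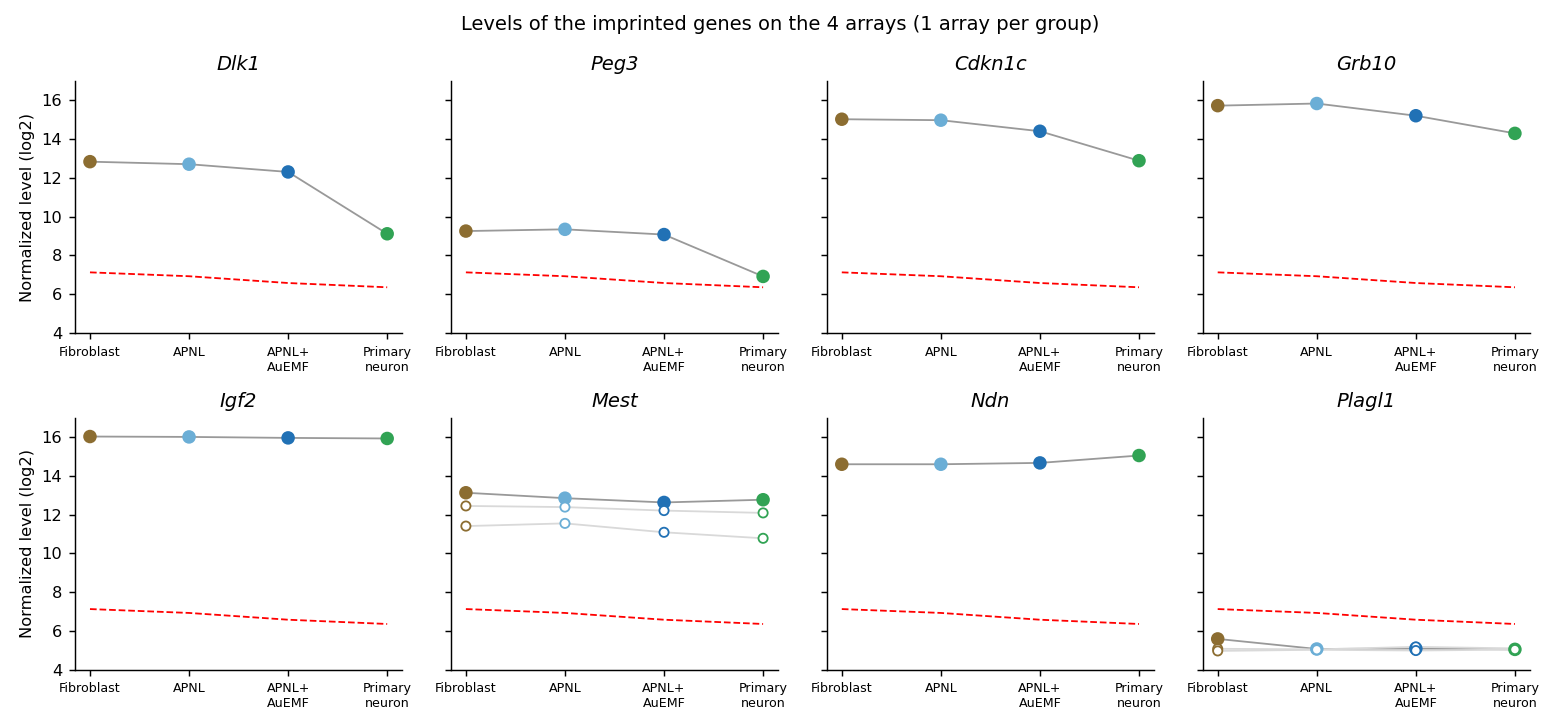
Normalized level (log2, vertical axis) of the 8 imprinted genes with a probe on each of the 4 arrays, with 1 point per array. Filled points are the probe used for the gene, open points its other probes, and the dashed red line the lowest detected level of each array. Dlk1, Peg3, Cdkn1c and Grb10 are lowest on the Primary neuron array, Igf2, Mest and Ndn differ little, and Plagl1 lies below the line throughout.

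Dlk1 showed the widest range of the 7 detected genes. It encodes a membrane protein with epidermal growth factor-like repeats, related to the Notch ligands, that holds precursor cells such as preadipocytes in an undifferentiated state. The level of Dlk1 was 12.84 for Fibroblast, 12.71 for APNL, 12.31 for APNL+AuEMF and 9.12 for Primary neuron, from raw intensities of 6870, 6759, 5576 and 824 units. The Primary neuron array stood apart from the other 3, which lay within 0.54 of each other. Dlk1 was lower in Primary neuron than in Fibroblast by 3.73 on the log2 scale (difference -3.73), a 13.3-fold difference, and kept 7.54% of the fibroblast level. Only 18 of 8987 genes compared, Dlk1 included, were as low or lower. The RefSeq promoter window of Dlk1, shown because it belongs to the gene that differed most, lies at chr12:109452573-109452872 on the plus strand of GRCm38.p6. It runs from 250 bases before to 50 after a start site, and capitals mark its 9 CpG dinucleotides, the sites that DNA methylation uses. The median over 32851 such windows was 7.
Dlk1: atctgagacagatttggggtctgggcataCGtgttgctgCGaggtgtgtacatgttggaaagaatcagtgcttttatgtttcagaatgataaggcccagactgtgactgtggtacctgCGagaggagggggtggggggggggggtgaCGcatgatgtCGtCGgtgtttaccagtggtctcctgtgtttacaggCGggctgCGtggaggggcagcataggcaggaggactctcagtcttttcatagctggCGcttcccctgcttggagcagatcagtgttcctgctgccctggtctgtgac

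Igf2, the insulin-like growth factor of fetal growth and the best known paternally expressed gene, was among the brightest signals of every array. Its raw intensity was 66230 units on Fibroblast, 65943 on APNL, 65080 on APNL+AuEMF and 62575 on Primary neuron, which placed it 5th, 9th, 16th and 22nd of 25697 probes. The normalized levels were 16.03, 16.01, 15.96 and 15.93. These values fall near the top of the intensity scale, where the highest probe of any array read 69776 units. The 12 probes that were among the 20 brightest on every array differed between arrays by at most 1.07-fold. Probes picked in this way must lie close to each other, so that value cannot show a ceiling. A difference in Igf2 can be understated near the top of the scale, which was not tested. Its difference between Primary neuron and Fibroblast was -0.10, or -0.73 when arrays were scaled to a common median instead of quantile-normalized. Igf2 was therefore abundant on all 4 arrays, and its order among them is a difference of 1.06-fold in raw intensity.

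Cdkn1c encodes Kip2, an inhibitor of cyclin-dependent kinases that stops the cell cycle as cells differentiate. The level of Cdkn1c was 15.03 on Fibroblast, 14.98 on APNL, 14.41 on APNL+AuEMF and 12.89 on Primary neuron, from 31910, 33157, 23581 and 7847 raw units. Fibroblast and APNL were alike, APNL+AuEMF was between them and Primary neuron, and Primary neuron was 4.40-fold below Fibroblast (difference -2.14). Of 7 cell cycle markers compared between Primary neuron and Fibroblast, 2 were lower, 5 were neither and 0 were higher, where 14.9% of all genes were lower and 11.0% higher. Cdkn1c and Igf2 lie in neighbouring imprinted clusters on chromosome 7. No promoter window of Cdkn1c is printed.

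Grb10 encodes an adaptor protein that binds the insulin and insulin-like growth factor receptors and dampens their signal. In mouse it is expressed from the maternal copy in most tissues and from the paternal copy in neurons. The level of Grb10 was 15.73 on Fibroblast, 15.84 on APNL, 15.21 on APNL+AuEMF and 14.30 on Primary neuron, from 52025, 57546, 42049 and 20169 raw units. It stayed bright on every array, with Primary neuron lowest at 37.1% of the Fibroblast level (difference -1.43). With scaling to a common median the difference was -2.02. The single Grb10 probe was not matched to a transcript variant, so the 2 promoter windows in RefSeq cannot be told apart. The first, at chr11:12037371-12037670 on the minus strand of GRCm38.p6, is shown as the most CpG-rich window of the listed genes, with 45 CpG dinucleotides in capitals. Of all windows 98.1% had fewer.
Grb10: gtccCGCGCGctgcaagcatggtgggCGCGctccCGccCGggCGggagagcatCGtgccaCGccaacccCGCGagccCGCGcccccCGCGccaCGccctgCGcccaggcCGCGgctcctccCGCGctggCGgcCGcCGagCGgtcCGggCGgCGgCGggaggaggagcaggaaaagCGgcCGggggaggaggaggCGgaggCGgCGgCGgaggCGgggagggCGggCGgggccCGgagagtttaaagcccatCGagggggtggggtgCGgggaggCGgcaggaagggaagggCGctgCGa

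Mest, a paternally expressed gene of mesoderm that encodes a protein of the hydrolase fold family, was read by 3 probes. All 3 were read on the same arrays, so their spread is between probes and does not measure error between samples. The probe used had levels of 13.13 on Fibroblast, 12.85 on APNL, 12.63 on APNL+AuEMF and 12.77 on Primary neuron. The other probes read 12.45, 12.39, 12.21 and 12.09, and 11.41, 11.55, 11.09 and 10.78, in the same order. Between Primary neuron and Fibroblast the 3 probes gave differences from -0.62 to -0.35, all below 0 and all short of 2-fold. Between APNL and Fibroblast they disagreed in sign, at -0.28 for the probe used and 0.14 for another, so no order can be read at this size.

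Ndn encodes necdin, a protein of the MAGE family that restrains proliferation and is known from postmitotic neurons. The level of Ndn was 14.60 on Fibroblast, 14.60 on APNL, 14.67 on APNL+AuEMF and 15.05 on Primary neuron, from 23189, 25129, 28195 and 31996 raw units. It was thus nearly as bright on the fibroblast array as on the neuron array. Its difference between Primary neuron and Fibroblast was 0.45, but -0.19 with scaling to a common median and 0.03 with scaling to the median of the probes detected on all arrays, so its direction depends on the scaling. The Ndn promoter window at chr7:62348027-62348326, plus strand of GRCm38.p6, is shown for contrast with those above, as that of a detected gene without a 2-fold difference, and has 11 CpG dinucleotides in capitals.
Ndn: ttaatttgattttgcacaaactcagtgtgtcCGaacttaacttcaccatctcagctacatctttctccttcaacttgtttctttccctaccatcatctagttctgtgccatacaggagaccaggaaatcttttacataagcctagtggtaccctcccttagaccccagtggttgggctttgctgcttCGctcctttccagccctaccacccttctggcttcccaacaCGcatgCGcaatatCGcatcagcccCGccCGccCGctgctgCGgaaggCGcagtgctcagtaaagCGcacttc

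Peg3 encodes a large zinc-finger protein, is expressed from the paternal copy, and acts in fetal growth and maternal behaviour in mouse. The level of Peg3 was 9.26 on Fibroblast, 9.35 on APNL, 9.08 on APNL+AuEMF and 6.92 on Primary neuron, from 594, 668, 715 and 281 raw units. Primary neuron was 5.08-fold below Fibroblast (difference -2.35), and 145 of 8987 genes were as low or lower. Peg3 was the dimmest of the detected members, so its value depends most on the background: without background correction, and in the authors' deposited log2 values, the difference was -1.62. The lowest detected level on the Primary neuron array was 6.36.

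Usp29, a ubiquitin protease gene that is also expressed from the paternal copy, is read from the opposite strand beside Peg3 and is described here as its neighbour, chosen after its values were seen. It was not detected on the Fibroblast array and had levels of 7.95 on APNL, 8.77 on APNL+AuEMF and 11.11 on Primary neuron. Usp29 was at least 15.8-fold higher in Primary neuron than in Fibroblast, while Peg3 was 5.08-fold lower, so the neighbours differed in opposite directions between the same arrays. Their RefSeq start sites lie 164 bases apart, head to head, and their promoter windows share 263 bases. Peg3's window is at chr7:6730370-6730669 on the minus strand and that of Usp29 at chr7:6730333-6730632 on the plus strand of GRCm38.p6. Capitals mark the shared bases, which read as reverse complements of each other. The shared stretch holds 1 cyclic AMP response element, TGACGTCA, a palindrome that reads alike on both strands.
Peg3: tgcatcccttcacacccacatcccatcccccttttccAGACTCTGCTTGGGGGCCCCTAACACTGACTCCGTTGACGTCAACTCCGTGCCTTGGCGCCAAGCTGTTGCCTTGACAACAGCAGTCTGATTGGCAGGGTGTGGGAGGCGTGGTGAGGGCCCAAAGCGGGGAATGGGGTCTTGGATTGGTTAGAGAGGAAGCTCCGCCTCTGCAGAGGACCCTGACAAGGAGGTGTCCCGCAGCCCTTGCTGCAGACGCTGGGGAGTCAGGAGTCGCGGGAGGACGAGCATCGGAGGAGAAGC
Usp29: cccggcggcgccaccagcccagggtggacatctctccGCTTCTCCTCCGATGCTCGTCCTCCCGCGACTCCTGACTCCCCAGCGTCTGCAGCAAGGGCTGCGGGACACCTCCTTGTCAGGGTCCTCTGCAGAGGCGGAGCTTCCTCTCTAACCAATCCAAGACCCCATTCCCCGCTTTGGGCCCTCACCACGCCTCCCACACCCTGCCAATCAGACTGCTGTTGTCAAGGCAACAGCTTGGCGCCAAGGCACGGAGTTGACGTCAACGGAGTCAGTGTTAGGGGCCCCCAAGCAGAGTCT

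Across the promoter windows, 8 of the 10 listed genes had an entry, with 15 windows in all. H19 and Cdkn1c had none. TGACGTCA was in 2 of the 15 windows, those of Peg3 and Meg3, and in 1.79% of all 32851 windows. The E-box CAGCTG, also a palindrome, was in 1 window, of Mest, and in 16.3% of all windows. The GC box GGGCGG, searched on both strands, was in 8 windows and in 35.7% of all. Some of the 8 belong to the same gene. Among them, 2 Mest windows start at 30737800 and 30737803 and overlap almost fully, so a match there can count more than once. None of these motifs contains another, and a match is a description of the sequence only.

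Read together, 4 of the 7 detected genes were at least 2-fold lower in Primary neuron than in Fibroblast, 3 were neither and 0 were higher. Over all 8987 genes compared, 14.9% were lower and 11.0% were higher. The 4 were Dlk1, Peg3, Cdkn1c and Grb10, of which Dlk1 and Peg3 are paternally expressed and Cdkn1c is maternally expressed. The median difference of the 7 genes was -1.43, against -0.07 over all genes compared. With scaling to a common median the median of all genes moved to -0.28, and the same comparison still gave 4 members lower and 0 higher. Dlk1, Peg3 and Cdkn1c lay outside the range that held the central 95% of genes detected on both arrays, from -2.06 to 2.13.

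**Figure D2:**
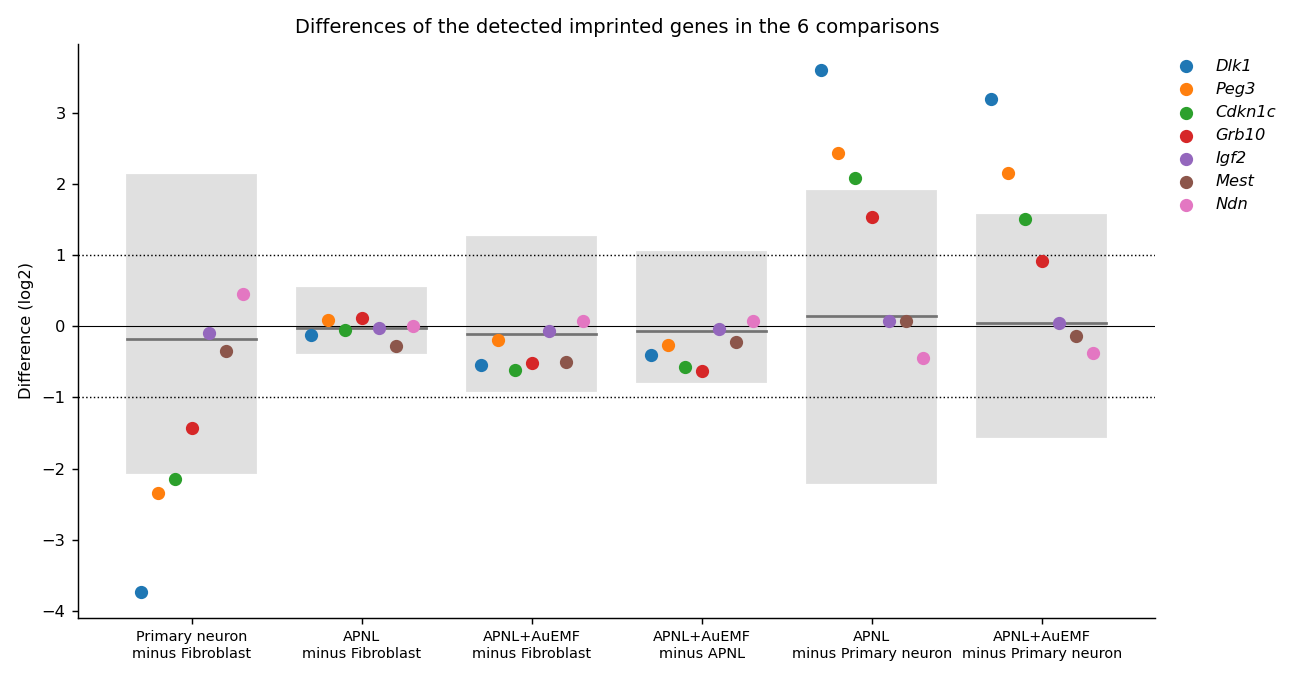
Difference on the log2 scale (vertical axis) of the 7 detected imprinted genes in each of the 6 comparisons, with 1 point per gene. Grey boxes span the central 95% of all genes detected on both arrays, grey lines are their medians, and dotted lines mark 2-fold. Points fall outside the box only in comparisons with Primary neuron, for Dlk1, Peg3 and Cdkn1c against Fibroblast and APNL and for Dlk1 and Peg3 against APNL+AuEMF.

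Between APNL and Fibroblast all 7 detected genes were neither higher nor lower, with differences from -0.28 for Mest to 0.11 for Grb10 and a median of -0.03. Dlk1 differed by -0.13, Cdkn1c by -0.05 and Peg3 by 0.09. Over all 8242 genes compared 1.55% were higher and 0.0% lower, so absence of a 2-fold difference was the rule on this pair of arrays. The 7 values lay inside the central 95% of genes detected on both arrays, from -0.38 to 0.54.

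Adding AuEMF is the step the series title names. Between APNL+AuEMF and APNL 0 of 7 genes reached 2-fold, and 6 of 7 differences were below 0. Over all 8700 genes compared, 4413 were as low as Igf2 at -0.04 or lower, Igf2 included, so a majority also lay below 0. Grb10 differed by -0.63, Cdkn1c by -0.57, Dlk1 by -0.41, Peg3 by -0.27, Mest by -0.22, Igf2 by -0.04 and Ndn by 0.07. Their median was -0.27, against -0.05 over all 8700 genes compared, of which 3.14% were higher and 0.759% lower. The value of Ndn was -0.11 with scaling to the median of detected probes and -0.19 with scaling to a common median. With the first of these scalings 95.9% of all genes past 2-fold were higher, against 80.5% here. For Peg3 the raw intensity went the other way, 715 units with AuEMF and 668 without.

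Against Fibroblast, APNL+AuEMF gave the same counts, 0 higher and 0 lower of 7, while 5.22% of 8675 genes were higher and 1.68% lower. Cdkn1c was at 64.8% of its fibroblast level, Dlk1 at 68.9%, Grb10 at 69.8% and Mest at 70.9%, none of them past 2-fold. The median was -0.50, against -0.07 over all genes. Among all genes past 2-fold 75.6% were higher, and 89.3% with scaling to the median of detected probes.

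Against Primary neuron, the genes that were lower there than in Fibroblast were also lower there than in APNL, and all but Grb10 than in APNL+AuEMF. In APNL 4 of 7 were higher, Dlk1 12.1-fold, Peg3 5.40-fold, Cdkn1c 4.24-fold and Grb10 2.91-fold, and 0 were lower, where 12.7% of 9010 genes were higher and 10.7% lower. In APNL+AuEMF 3 of 7 were higher, Dlk1 9.13-fold, Peg3 4.47-fold and Cdkn1c 2.85-fold, where 7.42% of 9076 genes were higher and 6.74% lower. Grb10 was 1.88-fold higher there, short of 2-fold. With scaling to a common median its difference was 1.27 in place of 0.91, which is past 2-fold. The Primary neuron array is shared by both comparisons and by that with Fibroblast.

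Markers of other cell types also differed between Primary neuron and Fibroblast. Of 17 fibroblast markers 14 were lower in Primary neuron than in Fibroblast, 3 were neither and 0 higher, with a median of -1.41, although 16 were still detected in Primary neuron. Of 15 skeletal muscle markers 14 were lower, 1 was neither and 0 higher, with a median of -2.81. Summed over the list on the linear scale, fibroblast markers came to 265079 units for Fibroblast, 255338 for APNL, 257655 for APNL+AuEMF and 125400 for Primary neuron. In that order the same sum was 44115, 39819, 21738 and 3063 units for the 20 muscle markers with a probe. On the APNL+AuEMF array 10 of 15 muscle markers were lower than in Fibroblast, with a median of -1.03, while of 17 fibroblast markers 2 were higher, Dcn at 1.06 and Dpt at 1.45, and 0 were lower, with a median of -0.22. Neuron markers were higher in 15 of 16 in Primary neuron, with a median of 3.91, and summed to 9919, 19577, 37187 and 118369 units. These counts depend on the probe for some genes. Another probe of Map2 gave 0.97, another of Mapt 0.80 and another of the muscle marker Myog -0.91, all short of 2-fold. The muscle marker Myh8 counts as neither, but its other probe gave -1.15. On the APNL+AuEMF array 7 of 8 macrophage markers were higher than in APNL, with sums of 3242 units in APNL and 22757 with AuEMF. Of 6 erythroid markers 3 were detected on the Primary neuron array and 0 on each of the others, with sums of 265, 236, 254 and 3108 units in the same order. Hba-a1, a haemoglobin gene, was at least 17.3-fold higher in Primary neuron than in Fibroblast. The part of these cell types in the levels of the imprinted genes was not tested.

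**Figure D3:**
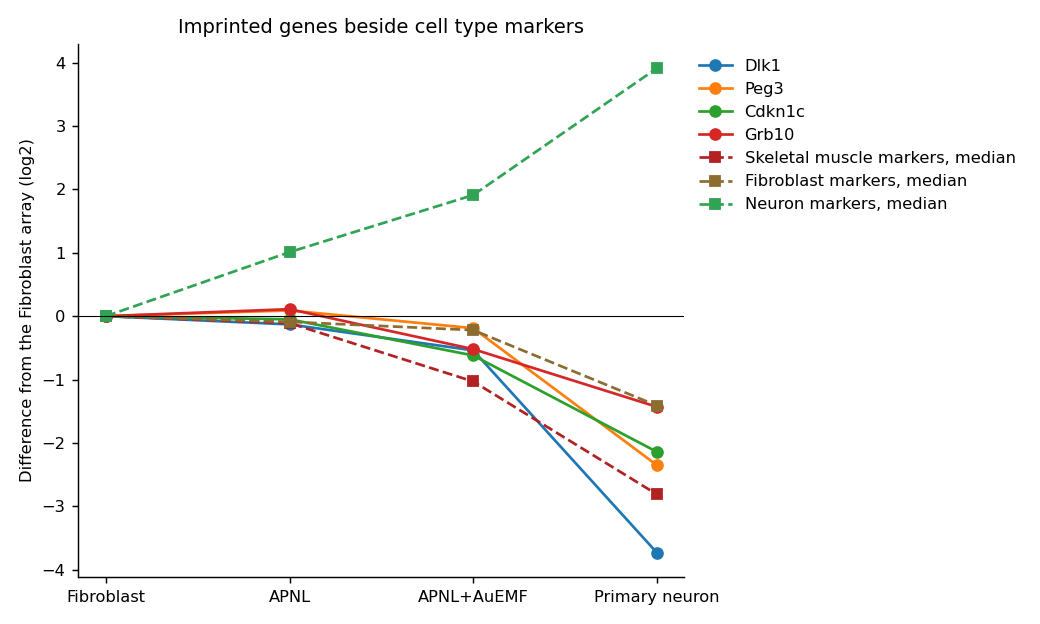
Difference from the Fibroblast array (log2, vertical axis) for the 4 imprinted genes that were lower in Primary neuron (circles, solid lines) and the median difference of the markers of 3 cell types (squares, dashed lines). Markers detected on only 1 of the arrays compared enter at their bounds. Dlk1 ends at -3.73, below the muscle marker median of -2.81, and Grb10 at -1.43, beside the fibroblast marker median of -1.41.

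Genes whose 4 levels were most like a member's were found by the distance between values centred on each gene's own mean, over 4 arrays and 8426 genes. Nearest to Dlk1 were Pdgfra, a growth factor receptor of mesenchyme, at a distance of 0.15 and Avpr1a, a vasopressin receptor gene, at 0.18. Nearest to Peg3 were Ppfibp2 at 0.08 and the homeobox gene Hoxb4 at 0.17. The search did not require detection on every array. Ppfibp2 read 6.19 on the Primary neuron array, below that array's lowest detected level of 6.36, so its match rests partly on an undetected value. Nearest to Cdkn1c were Pign at 0.05 and Mical2 at 0.06, and nearest to Grb10 were Entpd7 at 0.04 and Hip1 at 0.05. The levels of Pdgfra were 12.71, 12.63, 12.34 and 9.15 in the order used above, so its drop on the Primary neuron array was of the size seen for Dlk1. With 4 arrays many genes share a simple shape, and these distances are a description.

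Other genes of the same clusters did not all go with the members. They were picked as neighbours after their values were seen. Beside Ndn, in the cluster known from Prader-Willi syndrome, Snrpn, a splicing factor gene expressed mainly in brain, had levels of 12.19 on Fibroblast, 12.76 on APNL, 13.40 on APNL+AuEMF and 14.74 on Primary neuron. Snrpn was 5.84-fold higher in Primary neuron than in Fibroblast and Mkrn3, a ring finger gene, 2.57-fold, while Ube3a, a ubiquitin ligase gene, differed by 0.19 and Magel2 was not detected. Ndn therefore had the smaller difference of the paternally expressed genes detected in that cluster. Beside Grb10, Ddc, which encodes the decarboxylase that makes dopamine and is imprinted in mouse heart, had levels of 9.51, 9.27, 8.44 and 6.81 in the order Fibroblast, APNL, APNL+AuEMF and Primary neuron. Ddc was 6.52-fold lower in Primary neuron than in Fibroblast, the direction also seen for Grb10, and 2.11-fold lower in APNL+AuEMF than in Fibroblast. Beside Dlk1, Dio3, a deiodinase gene that breaks down thyroid hormone, had levels of 7.30, 7.29, 6.85 and 6.39 and differed by -0.92, close to the detection limit, and Rtl1 was not detected. Beside Cdkn1c, Phlda2 was detected on Fibroblast and APNL, at 7.21 and 7.13, and not on the other arrays. Slc22a18 had the reverse pattern, detected on APNL+AuEMF and Primary neuron only, at 7.13 and 7.15. Kcnq1 and Ascl2 were not detected.

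**Figure D4:**
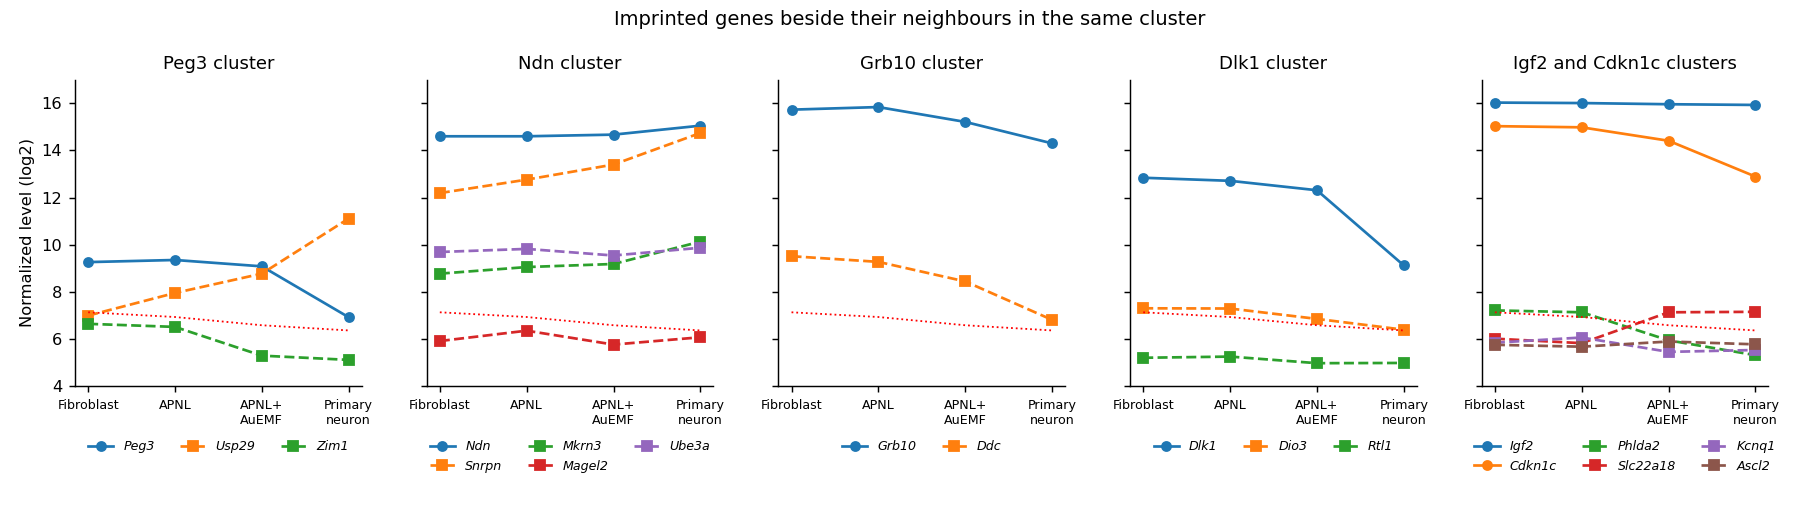
Normalized level (log2, vertical axis) on the 4 arrays of listed imprinted genes (circles, solid lines) and of neighbours in their clusters (squares, dashed lines), with the lowest detected level of each array as a dotted red line. Heights of different genes come from different probes and are not comparable, only the shape of each line is. Usp29 and Snrpn are highest on the Primary neuron array, and Peg3, Grb10, Ddc and Dlk1 are lowest there.

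A wider list of 43 other imprinted genes had 33 with a probe, of which 19 could be compared between Primary neuron and Fibroblast. Of these 10 were higher, 2 lower and 7 neither, with a median of 1.03, whereas the listed growth genes had 0 higher and 4 lower of 7. Nnat, a proteolipid gene of developing neurons, was at least 17.6-fold higher, Usp29 at least 15.8-fold and Inpp5f, a phosphatase gene with an imprinted brain variant, 7.97-fold. Slc38a4, an amino acid transporter gene of fetal growth, was 8.54-fold lower, and Igf2r, which clears the Igf2 protein and is expressed from the maternal copy in mouse, 5.31-fold. The probe of Inpp5f was not matched to its imprinted variant. Between APNL+AuEMF and APNL 1 gene was higher, Rasgrf1, a guanine nucleotide exchange factor gene, at 1.30, and 1 lower, Slc38a4 at -1.09, of 19 compared, with Usp29 at 0.82 and Nnat at 0.81.

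The list of the insulin-like growth factor pathway had 20 genes, 18 with a probe, and gave 6 lower, 0 higher and 8 neither of 14 compared between Primary neuron and Fibroblast, with a median of -0.90. These counts depend on the probe for Igfbp2, Igfbp4 and Htra1. Igfbp2, whose protein binds the growth factors, counts as neither at 0.94, but its other probe gave 4.06. Igfbp4, of the same family, counts as lower at -1.15, but its other probe gave -0.32. Htra1 counts as lower at -1.05, but its other probe gave -0.66. Igf2r is on this list too, at -2.41. Igf1, the related growth factor gene, had levels of 10.61, 10.38, 10.53 and 8.31 in the order Fibroblast, APNL, APNL+AuEMF and Primary neuron, a difference of -2.29. Igf2bp1, whose protein binds the Igf2 messenger RNA, differed by -1.86 and Stc2, whose protein blocks a protease of the pathway, by -1.17. Igf1r, the receptor gene of both factors and chosen after its values were seen, was detected on APNL+AuEMF and Primary neuron only, at 6.97 and 7.54. Between APNL+AuEMF and APNL 0 of 14 were past 2-fold, with Igfbp3 at 0.69, Igf2bp1 at -0.65, Igf2r at -0.51 and Igfbp2 at 0.48.

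Of 18 genes that set or read imprints 15 had a probe. Of the 10 compared, 1 was lower in Primary neuron than in Fibroblast, 1 was higher and 8 were neither. Dnmt3b, a methyltransferase gene, was lower at -1.22. Ezh2, which encodes the enzyme of the Polycomb mark, was higher at 1.01 by the probe used, while another of its probes gave -0.20. Smchd1 counts as neither at -0.40, but another of its probes gave -1.32. Eed, whose protein is a partner of Ezh2, differed by -0.80 and Uhrf1, which helps copy DNA methylation, by -0.47. Between APNL+AuEMF and APNL 0 of 10 were past 2-fold, with Dnmt3b at -0.62, Dnmt1, the maintenance methyltransferase gene, at -0.43, Uhrf1 at -0.34 and Dnmt3l, detected with AuEMF and not without, at a bound of 0.40.

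**Figure D5:**
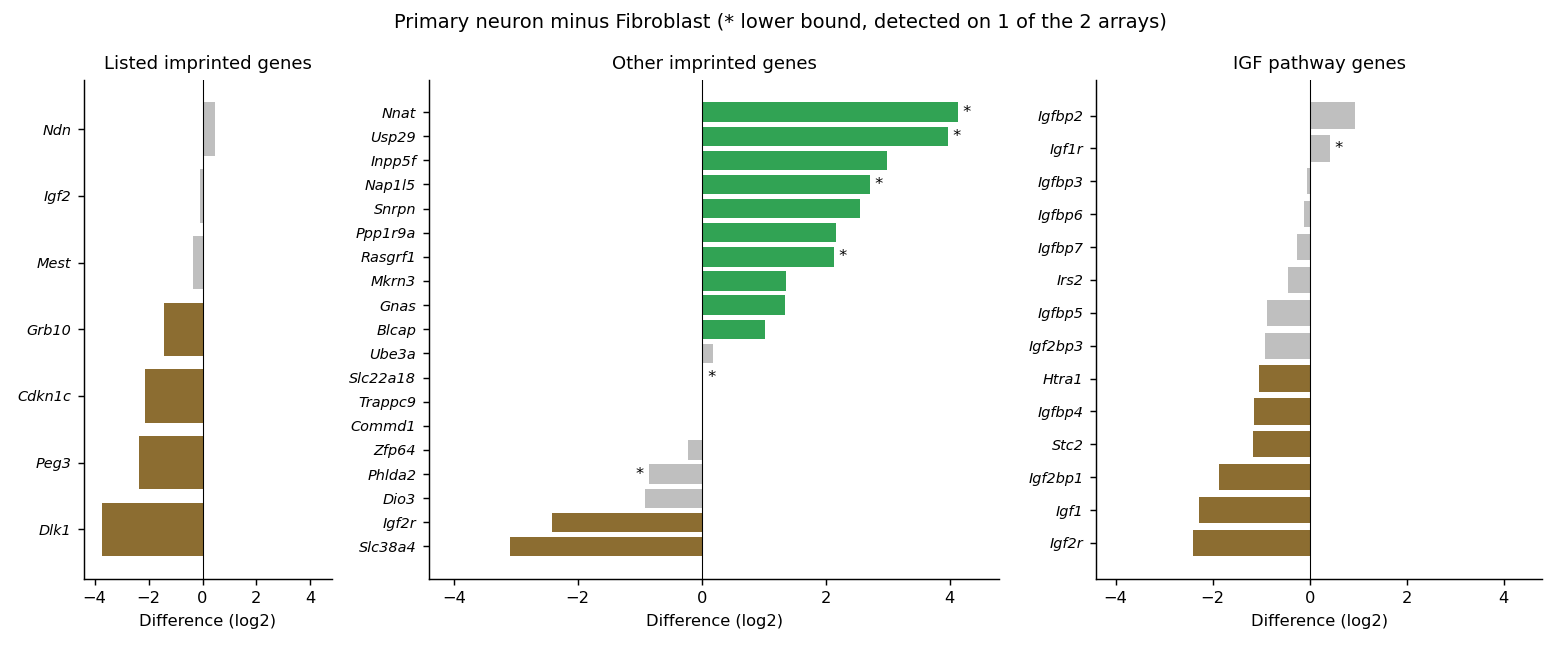
Difference between Primary neuron and Fibroblast (log2, horizontal axis) for the 7 detected listed genes, 19 other imprinted genes and 14 genes of the insulin-like growth factor pathway, with 1 bar per gene from 0. Green bars are at least 2-fold higher, brown bars at least 2-fold lower and grey bars neither, and an asterisk marks a lower bound. With the probes used, green bars appear among the other imprinted genes, 10 of 19, and not in the other panels. Another probe of Igfbp2, drawn here at 0.94, gave 4.06.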

How the data were processed

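Gene expression was measured in 4 mouse samples, 1 Illumina array each. The authors deposited a probe intensity on a linear scale, with no normalization between arrays, and a detection p-value for each probe and array. Per the submitters' processing notes the software was GenomeStudio 2011.1, and how it treated background is not stated there. The authors also deposited log2 values, which matched the quantile-normalized log2 intensity to within 5.0e-07.

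Main values came from the deposited intensity by neqc in limma 3.58.1 (R 4.3.3), with negative controls inferred through the detection p-values for background correction, an offset of 16 before log2, and quantile normalization over the 4 arrays. The annotation gave 1 gene symbol to 23978 of 25697 probes, several to 0 and none to 1719. The probe of highest mean stood for each of 16593 genes. Probe sequences and positions were not used here, so cross-hybridisation was not assessed. A gene detected on only 1 of 2 arrays was set against the other array's lowest detected level, or its own level there where that was higher, which gives a lower bound. No test was made with 1 array per group, whose number limits the precision. On made-up arrays, the probe choice and the comparison recovered known differences set well past 2-fold. Background correction and normalization were not run on those arrays, so the check does not cover them. Groups are the sample titles.

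The members and gene lists were chosen with earlier results of these data known. All members are named. From each list up to 4 genes with the largest difference in Primary neuron against Fibroblast, and in APNL+AuEMF against APNL, are named, with the 2 nearest genes of each member ranging over at least 1 on the log2 scale. Neighbours, cell type markers and genes with differing probes that are named beyond this were chosen after their values were seen. Promoter windows come from RefSeq, GRCm38.p6. Alternatives covered background, scaling, detection, probe choice and threshold. Python 3.11.15, numpy 2.4.6 and pandas 2.3.3 served for the rest.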

Additional observations from a re-analysis of the deposited data

How the results depend on the processing

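The counts of imprinted genes past 2-fold in the 6 comparisons stayed within 1.5-fold of those reported under the alternatives run on these counts. Those were log2 intensity with its background left in, normexp at an offset of 50, scaling to a common median, the log2 values the authors deposited, a detection p below 0.05, no filter, probes averaged per gene and a 3-fold threshold. Scaling to the median of probes detected on all arrays was added after seeing the data. In APNL+AuEMF against Primary neuron the count of 3 was 4 with either scaling and 2 at 3-fold. Grb10 crossed 2-fold with the scalings, at 1.27 with a common median and 1.13 with the median of detected probes, against 0.91. Cdkn1c, at 2.85-fold, fell short of 3-fold. No difference of 2-fold or more changed sign. A looser or absent filter cannot move a gene detected on every array, averaging probes can move Mest alone, and the deposited log2 values equal those without background correction. Differences of single genes moved by over 1.5-fold in these cases. Without background correction Peg3 differed by -1.62 in Primary neuron against Fibroblast, 1.69 in APNL against Primary neuron and 1.46 in APNL+AuEMF against Primary neuron. With scaling to a common median Igf2 differed by -0.73, Grb10 by -2.02 and Ndn by -0.19 in Primary neuron against Fibroblast, and Ndn by 0.21 in APNL against Primary neuron. Another Mest probe gave 0.76 in APNL against Primary neuron. Counts over all genes moved by over 1.5-fold in places: in APNL+AuEMF against APNL 66 genes were lower and 273 higher, against 0 and 146 without background correction and 16 and 375 with scaling to the median of detected probes. In APNL+AuEMF against Fibroblast 146 were lower, against 18 without background correction and 67 with that scaling. At 3-fold 9 other imprinted genes and 3 pathway genes differed between Primary neuron and Fibroblast, against 12 and 6 at 2-fold. Signal over background limits Peg3, the top of the intensity scale limits Igf2, and 1 array per group limits every comparison. No paired analysis was possible because each group has 1 array.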
